A study of Homo sapiens with 24 samples.

Results

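The EGFR family and its ligands were analysed as 9 genes, the receptors EGFR, ERBB2 and ERBB3 and the ligands AREG, EREG, HBEGF, TGFA, EPGN and BTC. They were selected by gene name in the count files, and all 9 were found among the 57820 genes listed for each of 24 libraries. The libraries came from Cal33 and SAS, established wild-type cell lines of tongue squamous cell carcinoma. In each line, 3 libraries were made for each of 4 groups: cells given GSK-J1 at 4.5 µM together with a single x-ray dose of 4 Gy, cells given 4 Gy alone, cells given GSK-J1 alone, and sham cells that received neither. GSK-J1 inhibits JMJD3 and UTX, the demethylases of trimethylated lysine 27 on histone H3, and RNA was isolated after 24 h. Each line is a single cultured line and the labels do not state whether the 3 libraries of a group came from separate cultures, so the p-values describe the spread between these libraries only.

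EGFR, ERBB2 and ERBB3 are receptor tyrosine kinases that pair upon ligand binding and pass the signal through adaptors to RAS and the ERK kinases. The ligands are made as membrane-bound precursors and are released by membrane proteases, ADAM17 for several of them, and cells that make both ligand and receptor can stimulate themselves. EGFR is abundant in head and neck squamous cell carcinoma, and ionizing radiation is known to activate it.

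Levels are given as CPM, the sense-strand read counts of a gene scaled to a common library size, or, for levels compared between genes, as CPM per kilobase of exon (FPKM). A difference was called where edgeR's quasi-likelihood test gave an adjusted p under 0.05 over all genes tested, and fold changes are on the log2 scale with their standard error (SE). The libraries held 54200036 to 96848227 counts in genes. All 12 squamous epithelial markers examined exceeded 1 CPM in both lines. Of the fibroblast, leukocyte and endothelial markers, 4 exceeded 1 CPM in libraries of both lines, namely COL1A1 (22.9 to 43.6 CPM in Cal33 and 1.47 to 3.99 CPM in SAS), CD14 (5.26 to 8.86 CPM and 5.24 to 23.9 CPM), VWF (up to 4.34 CPM and 11.2 CPM) and CDH5 (13.4 to 55.5 CPM and 4.70 to 90.0 CPM). The others stayed under 1 CPM, with CD3E, LYZ and KDR under 0.1 CPM in all 24 libraries. In 2 SAS libraries, replicate 1 of GSK-J1 and replicate 1 of GSK-J1 with 4 Gy, 15 genes that were otherwise expressed in Cal33 cells only were found at 1.47% and 0.758% of their Cal33 level, whereas the highest of the 10 SAS libraries left reached 0.00487%. Results in SAS that changed without these 2 libraries are given both ways.

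AREG, EREG, HBEGF and TGFA were the ligands called with irradiation in Cal33 cells, and their promoters are shown for that reason. The sequences are the 250 bases before the RefSeq start site on GRCh38.p14, whereas the reads were counted on hs37d5. Promoter entries matched 8 of the 9 members. 5 motifs were searched on both strands and their matches are in capitals. They were TATAAA, the core of the TATA box, CCAAT, bound by the factor NF-Y, GGGCGG, which is the GC box, TGACGTCA, known as the cAMP response element, and the AP-1 site TGAGTCA. AREG lies on the plus strand at chr4:74444886-74445135, EREG on the plus strand at chr4:74364895-74365144, HBEGF on the minus strand at chr5:140346604-140346853, and the upstream one of the 2 TGFA entries on the minus strand at chr2:70553827-70554076.
AREG: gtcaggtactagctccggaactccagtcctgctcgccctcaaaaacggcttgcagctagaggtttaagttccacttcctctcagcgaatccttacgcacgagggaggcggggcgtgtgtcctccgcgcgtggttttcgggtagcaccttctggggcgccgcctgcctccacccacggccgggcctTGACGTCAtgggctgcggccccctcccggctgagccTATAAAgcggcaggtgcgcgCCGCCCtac
EREG: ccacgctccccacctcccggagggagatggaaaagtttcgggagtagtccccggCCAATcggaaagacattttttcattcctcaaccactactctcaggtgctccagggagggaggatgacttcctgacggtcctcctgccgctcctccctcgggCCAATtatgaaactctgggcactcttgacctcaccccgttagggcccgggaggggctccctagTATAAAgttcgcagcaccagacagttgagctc
HBEGF: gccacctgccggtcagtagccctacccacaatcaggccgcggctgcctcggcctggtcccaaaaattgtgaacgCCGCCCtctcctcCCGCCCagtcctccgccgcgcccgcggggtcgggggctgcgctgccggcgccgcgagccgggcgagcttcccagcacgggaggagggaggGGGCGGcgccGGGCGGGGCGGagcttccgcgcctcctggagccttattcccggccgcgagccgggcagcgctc
TGFA: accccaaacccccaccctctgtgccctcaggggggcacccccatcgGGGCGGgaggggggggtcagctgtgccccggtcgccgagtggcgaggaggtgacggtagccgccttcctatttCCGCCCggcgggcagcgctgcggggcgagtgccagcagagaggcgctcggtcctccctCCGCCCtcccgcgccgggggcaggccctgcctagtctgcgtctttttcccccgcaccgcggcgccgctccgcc

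The AREG promoter held 1 TGACGTCA, which began 65 bases before the start, and 1 TATAAA at 29 bases, and the EREG promoter held 1 TATAAA at 32 bases and 2 CCAAT motifs. No TATAAA was found in the HBEGF or TGFA windows, where GGGCGG occurred 5 and 3 times, an overlapping pair in HBEGF included. The other TGFA entry, at chr2:70553447-70553696, held 0 matches of any of the 5 motifs. Over 35116 promoters of the same length, TGACGTCA was present in 1.65%, TATAAA in 10.7%, CCAAT in 32%, GGGCGG in 42.6% and TGAGTCA in 4.2%. TGAGTCA was not found in these 4 windows. These matches describe the letters of the windows and no binding was measured.

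In sham cells, the lines shared a similar amount of EGFR RNA but differed in most of the ligands. EREG, AREG, HBEGF and TGFA were lower in Cal33 than in SAS cells, while EPGN, BTC and the receptor ERBB3 were higher. Of the 9 members, 3 were called higher and 4 lower in Cal33, at a background of 54.5% of 24597 genes called, 27.2% higher and 27.2% lower. Because RNA of whole cultures was measured, fewer cells of a kind and less RNA per cell cannot be told apart.

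**Figure D1:**
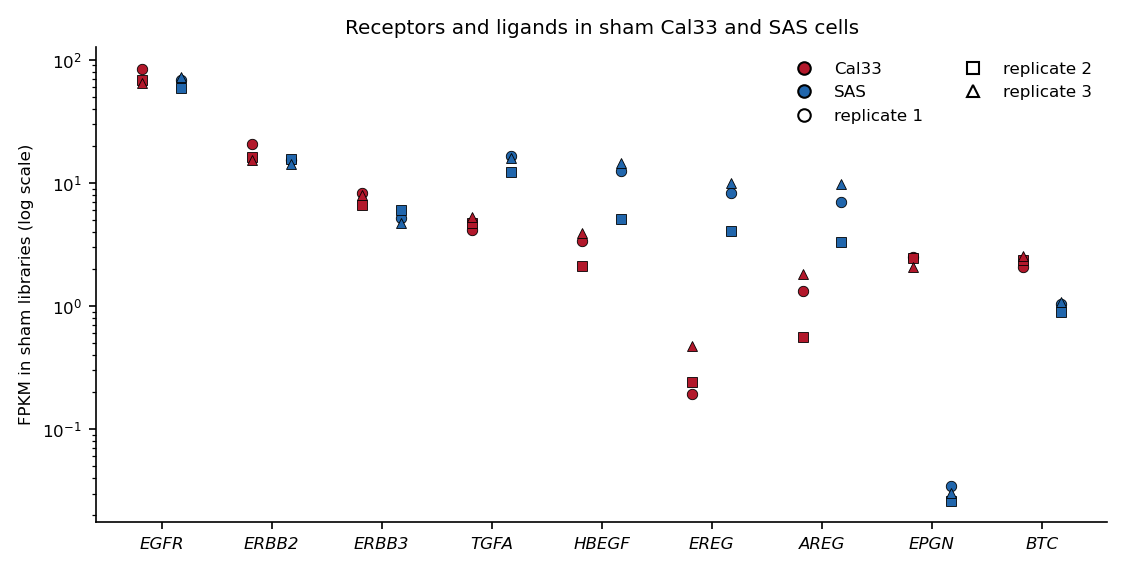
FPKM of the 9 members in the 3 sham libraries of Cal33 (red) and SAS (blue) on a log scale, with a symbol for each replicate. EGFR is the most abundant member in both lines, EREG and EPGN differ most between the lines, and all libraries of EREG, AREG, HBEGF and TGFA lie lower in Cal33 than in SAS.

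EGFR (hs37d5 chr7:55086714-55324313, plus strand), the receptor of all 6 ligands, reached 1099, 886 and 838 CPM in sham Cal33 libraries, against 883, 760 and 946 CPM in sham SAS libraries. The groups overlapped and the difference was not called (log2 fold change 0.11, SE 0.13, adjusted p = 0.52). ERBB2 (chr17:37844167-37886679, plus strand), which has no known ligand and signals as a partner of the other receptors, had 212, 167 and 160 CPM in Cal33, against 158, 161 and 146 CPM in SAS. The ERBB2 ranges overlapped as well (log2 fold change 0.19, SE 0.10, adjusted p = 0.106), although it was called without Cal33 sham replicate 3 (0.26, adjusted p = 0.0486). Over all 4 treatments, ERBB2 was called higher in Cal33 by 0.28 (SE 0.05, adjusted p = 2.7e-05), at a background of 75.1% of genes called in either direction. ERBB3 (chr12:56473641-56497289, plus strand), a receptor of neuregulins with a weak kinase domain, had 71.8, 57.0 and 69.1 CPM in Cal33, against 44.7, 52.3 and 40.6 CPM in SAS. All Cal33 libraries were above all SAS libraries for ERBB3 (log2 fold change 0.51, SE 0.15, adjusted p = 0.00543).

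EREG (chr4:75230860-75254468, plus strand), the gene of epiregulin, a ligand of EGFR and ERBB4, had 1.11, 1.39 and 2.72 CPM in sham Cal33 libraries, against 47.1, 23.1 and 57.3 CPM in sham SAS libraries. The lowest SAS library was thus above every Cal33 library, and the level was 24.3-fold lower in Cal33 (log2 fold change -4.60, SE 0.47, adjusted p = 3.31e-08). TGFA (chr2:70674412-70781325, minus strand), encoding transforming growth factor alpha, had 20.5, 23.5 and 26.0 CPM in Cal33, against 82.2, 60.9 and 78.8 CPM in SAS. The TGFA groups did not overlap, with a 3.21-fold lower level in Cal33 (log2 fold change -1.68, SE 0.14, adjusted p = 1.76e-09). HBEGF (chr5:139712428-139726216, minus strand), the heparin-binding ligand, had 10.2, 6.36 and 11.9 CPM in Cal33, against 38.0, 15.4 and 43.9 CPM in SAS. Here SAS replicate 2 stood low but still above the highest Cal33 library (log2 fold change -1.79, SE 0.42, adjusted p = 0.00102).

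AREG (chr4:75310851-75320726, plus strand), the gene of amphiregulin, was measured at 2.20, 0.921 and 2.99 CPM in sham Cal33 libraries, against 11.6, 5.51 and 16.3 CPM in sham SAS libraries. These groups did not overlap, and the level was called lower in Cal33 (log2 fold change -2.45, SE 0.56, adjusted p = 0.000838). However, hs37d5 carries a near-identical copy, AREGB (chr4:75480629-75490486, plus strand), and RefSeq on GRCh38.p14 lists AREGB only as a synonym of AREG. Of the reads counted at both loci, 48.5% to 68.5% fell on AREGB in the 12 Cal33 libraries, against 0% to 0.613% in the 12 SAS libraries. How reads that match both copies were assigned is not given in the sources used here, so the split between the copies is uncertain. With both loci summed, sham Cal33 cells had 5.15 ± 2.12 CPM, against 11.1 ± 5.41 CPM in sham SAS cells (SD, n = 3 each), and the line difference was no longer called (log2 fold change -1.12, SE 0.49, adjusted p = 0.0585). Over all treatments, the sum was called lower in Cal33 (-0.64, SE 0.24, adjusted p = 0.0209).

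EPGN and BTC, which code for epigen and betacellulin and lie in the same ligand cluster of chromosome 4, ran in the opposite direction. EPGN (chr4:75174190-75181024, plus strand) had 4.56, 4.46 and 3.76 CPM in sham Cal33 libraries, against 0.0632, 0.0475 and 0.0546 CPM in sham SAS libraries, where these values rest on 4, 3 and 5 counts. The level of EPGN was higher in Cal33 in every library (log2 fold change 6.21, SE 0.39, adjusted p = 1.21e-11), and the summed counts of 1019 and 12 gave a ratio of 76.4 with an exact 95% counting interval of 43.6 to 148. BTC (chr4:75669969-75719896, minus strand) had 5.84, 6.61 and 7.17 CPM in Cal33, against 2.94, 2.52 and 3.06 CPM in SAS. The BTC groups did not overlap (log2 fold change 1.19, SE 0.16, adjusted p = 1.12e-06).

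Per exon length, the order of levels differed between the lines. In the 12 Cal33 libraries, the median was highest for EGFR (66.7 FPKM), followed by ERBB2 (15.9), ERBB3 (7.38), TGFA (6.60), HBEGF (6.0), EPGN (3.00), BTC (2.51), AREG (2.46) and EREG (0.618 FPKM). The place of AREG in Cal33 is uncertain, because the median was 6.16 FPKM with AREGB added, between TGFA and HBEGF, and 9.20 FPKM in SAS. In the 12 SAS libraries, EGFR (61.1 FPKM) was followed by TGFA (21.0), HBEGF (16.7), ERBB2 (13.5), EREG (9.80), AREG (9.18), ERBB3 (4.58), BTC (1.06) and EPGN (0.0613 FPKM). Over the libraries of a line, neighbours in this order overlapped with few exceptions. In Cal33, EGFR was above ERBB2 and ERBB2 above ERBB3 in every library, and in SAS, EGFR was above TGFA, ERBB3 above BTC and BTC above EPGN in every library. The 6 ligands together summed to 14.0 ± 1.86 FPKM in sham Cal33 cells, against 40.9 ± 13.5 FPKM in sham SAS cells (SD, n = 3 each), which became 15.9 ± 2.5 FPKM, against 40.9 ± 13.5 FPKM with AREGB added.

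The next comparison asked how a dose of 4 Gy altered these genes in Cal33 cells. AREG, EREG, HBEGF and TGFA rose in the irradiated cells, while none of the 3 receptors was called in the fit of this line. Comparing the 6 irradiated with the 6 non-irradiated libraries, with and without GSK-J1, 4 of 9 members were called, all of them higher, at a background of 21.5% of 24351 genes called, 11.3% higher and 10.2% lower. The median log2 fold change of the 9 members was 0.58, against 0.02 over all genes tested.

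**Figure D2:**
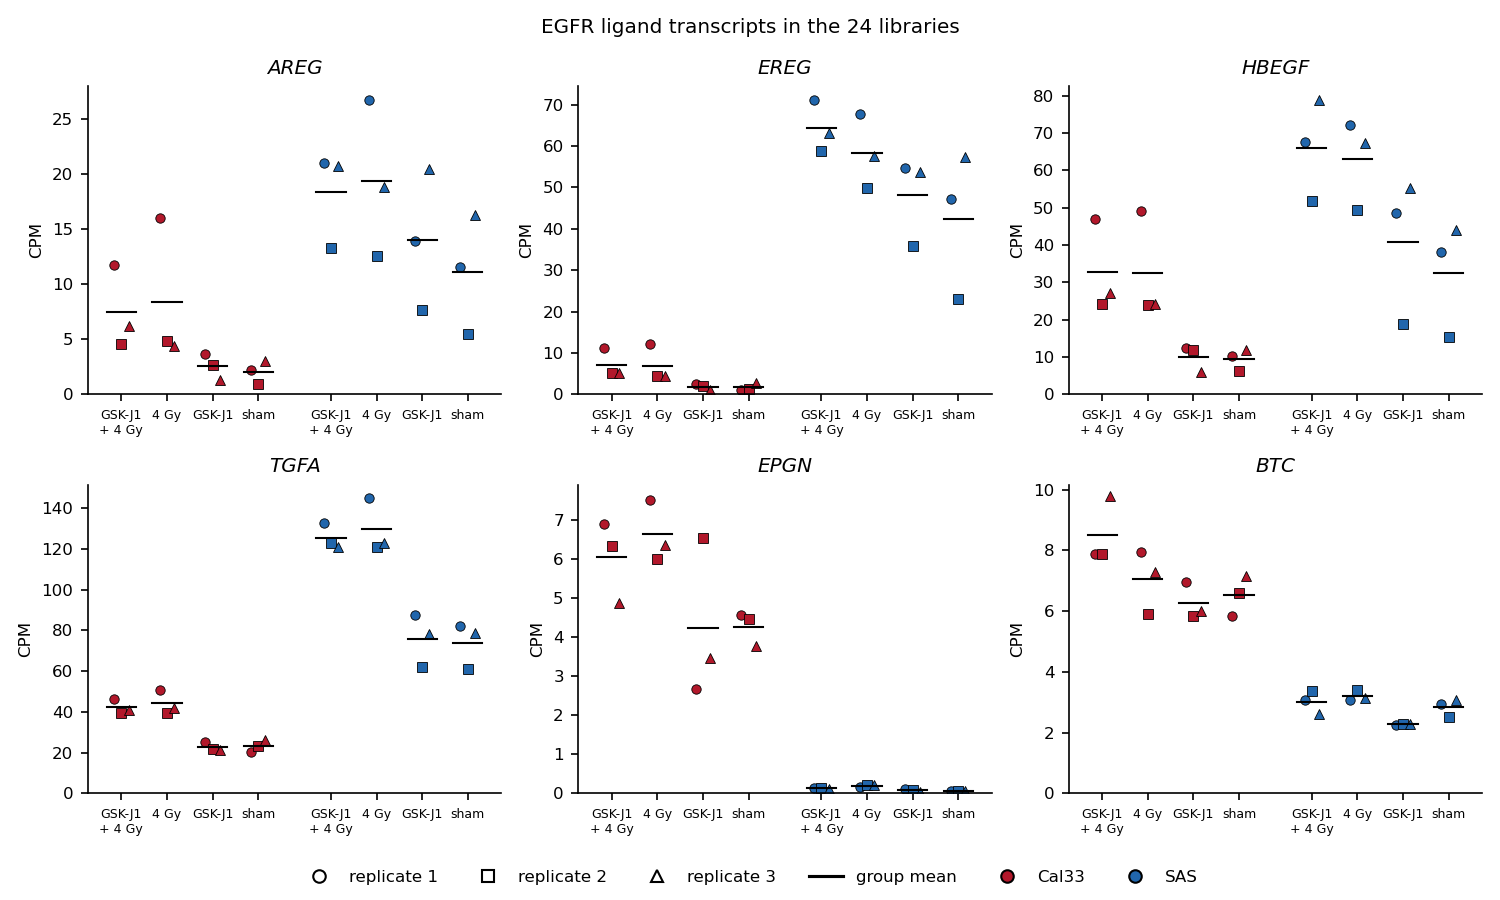
CPM of the 6 ligands in the 24 libraries, by line and treatment, with a symbol for each replicate and a bar at the group mean. In Cal33 (red), all irradiated libraries of AREG, EREG, HBEGF and TGFA lie above all non-irradiated ones, and in SAS (blue) this holds for TGFA.

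TGFA had 46.1, 39.5 and 41.0 CPM in Cal33 libraries after GSK-J1 with 4 Gy and 50.8, 39.5 and 42.1 CPM after 4 Gy alone, against 25.4, 21.8 and 21.3 CPM under GSK-J1 and 20.5, 23.5 and 26.0 CPM in sham cells. The 6 irradiated libraries were all above the 6 others, and TGFA was 1.88-fold higher (log2 fold change 0.91, SE 0.10, adjusted p = 0.000117). HBEGF had 46.8, 24.1 and 27.1 CPM after GSK-J1 with 4 Gy and 49.2, 23.8 and 24.3 CPM after 4 Gy, against 12.3, 11.9 and 6.07 CPM under GSK-J1 and 10.2, 6.36 and 11.9 CPM in sham cells. Every irradiated library again exceeded every other library, and HBEGF was 3.35-fold higher (log2 fold change 1.74, SE 0.26, adjusted p = 0.000764).

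EREG had 11.2, 5.26 and 5.04 CPM in Cal33 cells after GSK-J1 with 4 Gy and 12.05, 4.34 and 4.43 CPM after 4 Gy, against 2.57, 1.92 and 1.12 CPM under GSK-J1 and 1.11, 1.39 and 2.72 CPM in sham cells. The groups did not overlap, and EREG showed the highest fold change of the members in this line (3.91-fold, log2 fold change 1.97, SE 0.35, adjusted p = 0.00212). AREG had 11.8, 4.55 and 6.24 CPM after GSK-J1 with 4 Gy and 16.0, 4.82 and 4.43 CPM after 4 Gy, against 3.67, 2.70 and 1.26 CPM under GSK-J1 and 2.20, 0.921 and 2.99 CPM in sham cells. AREG did not overlap either and was 3.51-fold higher (log2 fold change 1.81, SE 0.41, adjusted p = 0.00794). With AREGB added, the increase was 1.6 on the log2 scale (SE 0.35, adjusted p = 0.00657).

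In AREG, EREG, HBEGF, TGFA and EPGN, and in the receptors EGFR and ERBB3, replicate 1 stood highest in both irradiated Cal33 groups. Without these 2 libraries, a choice made after seeing the data, AREG, EREG, HBEGF and TGFA were still called. ERBB3 was called lower in addition (-0.31, SE 0.09, adjusted p = 0.0306), and the background was 19.8% of genes called. When any single library was left out, the log2 fold change of the irradiated over the non-irradiated libraries ranged from 1.38 to 2.02 for AREG, 1.64 to 2.22 for EREG, 1.53 to 1.85 for HBEGF and 0.85 to 0.96 for TGFA, with all 4 called each time. Of the markers of other cell types, the endothelial VWF was lower in irradiated Cal33 libraries (1.28 ± 0.49 CPM, against 2.70 ± 1.21 CPM, SD, n = 6 each, adjusted p = 0.0367), and the sum of the 3 endothelial markers ranged from 19.7 to 33.3 CPM after GSK-J1 with 4 Gy and 22.5 to 31.6 CPM after 4 Gy, against 16.5 to 51.4 CPM under GSK-J1 and 28.0 to 59.9 CPM in sham cells. CDH5, which made up most of that sum, was not called (25.7 ± 4.96 CPM, against 37.8 ± 15.8 CPM, adjusted p = 0.182). KDR was near 0 in all groups, and the part of VWF in the ligand changes was not tested.

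For 4 Gy alone over sham in Cal33, EREG, HBEGF and TGFA were called, all higher, at a background of 6.27% of genes called and 3.47% called higher. The log2 fold changes were 1.98 for EREG (SE 0.50, adjusted p = 0.0359), 1.78 for HBEGF (SE 0.37, adjusted p = 0.0164) and 0.92 for TGFA (SE 0.14, adjusted p = 0.004). AREG did not pass (2.04, SE 0.58, adjusted p = 0.0563), although its 3 irradiated libraries exceeded the 3 sham libraries. AREG was called by DESeq2 (adjusted p = 0.0262), without a count filter (0.00643) and with all 24 libraries in the fit (0.0226), and without 4 Gy replicate 1 its log2 fold change was 1.18. With 3 libraries a group, single libraries mattered: the EREG call was lost without 4 Gy replicate 1 or 3 or sham replicate 1 or 2 (adjusted p = 0.127, 0.0561, 0.139 and 0.0864), and the HBEGF call without 4 Gy replicate 1 or sham replicate 1 (0.0562 and 0.0684), whereas TGFA was called in each of the 6 fits. Without 4 Gy replicate 1, the log2 fold changes were 1.33 for EREG and 1.35 for HBEGF. Of 5 fibroblast markers tested here, PDGFRB was called lower at a very low level (0.0617 ± 0.02 CPM after 4 Gy, against 0.173 ± 0.03 CPM in sham cells, SD, n = 3 each, adjusted p = 0.0473). The sum of the 6 fibroblast markers was 24.4 to 34.7 CPM after 4 Gy, against 23.7 to 44.4 CPM in sham cells, and its part in the ligand changes was not tested.

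In SAS cells, the same dose raised TGFA, EPGN and HBEGF and lowered ERBB2. Over the 6 irradiated and 6 non-irradiated libraries, 3 members were called higher and 1 lower, at a background of 20.2% of 23416 genes called, 9.65% higher and 10.5% lower. The median log2 fold change of the 9 members was 0.43, against -0.01 over all genes tested. TGFA had 133, 123 and 121 CPM in SAS libraries after GSK-J1 with 4 Gy and 145, 121 and 123 CPM after 4 Gy, against 87.3, 62.2 and 78.2 CPM under GSK-J1 and 82.2, 60.9 and 78.8 CPM in sham cells. All irradiated libraries were above all others, and TGFA was 1.70-fold higher (log2 fold change 0.76, SE 0.09, adjusted p = 0.000209).

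HBEGF had 67.5, 51.7 and 78.9 CPM in SAS cells after GSK-J1 with 4 Gy and 72.2, 49.3 and 67.3 CPM after 4 Gy, against 48.5, 18.9 and 55.1 CPM under GSK-J1 and 38.0, 15.4 and 43.9 CPM in sham cells. The groups overlapped through GSK-J1 replicate 3, and the increase passed narrowly (log2 fold change 0.82, SE 0.27, adjusted p = 0.0496). Without the 2 libraries that held Cal33 transcripts it was 0.88 and not called (adjusted p = 0.1), and of the 12 fits that left out a single library only those without GSK-J1 replicate 3 and without sham replicate 3 called it (adjusted p = 0.0266 to 0.108 over the 12 fits). With all 24 libraries in the fit HBEGF was not called either (0.82, adjusted p = 0.0626). EREG, at 71.0, 58.8 and 63.3 CPM after GSK-J1 with 4 Gy and 67.7, 49.8 and 57.7 CPM after 4 Gy, against 54.7, 35.8 and 53.7 CPM under GSK-J1 and 47.1, 23.1 and 57.3 CPM in sham cells, overlapped and was not called (0.43, SE 0.18, adjusted p = 0.113). EREG was called without sham replicate 3 (0.57, adjusted p = 0.03), without a count filter (0.44, adjusted p = 0.0409) and with the replicate block. AREG, at 21.0, 13.3 and 20.7 CPM and 26.7, 12.6 and 18.8 CPM in these irradiated groups, against 14.0, 7.66 and 20.4 CPM and 11.6, 5.51 and 16.3 CPM, was not called either (0.59, SE 0.28, adjusted p = 0.164).

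Replicate 2 was the lowest SAS library of AREG, EREG and HBEGF in each of the 4 groups, and libraries with the same replicate number deviated together in SAS. With the replicate number as a block, all 9 members were called in irradiated over non-irradiated SAS libraries, 6 higher and 3 lower, at a background of 37% of genes called. In that fit HBEGF rose by 0.93 (SE 0.13, adjusted p = 7.3e-05), AREG by 0.65 (SE 0.13, adjusted p = 0.00107), EREG by 0.48 (SE 0.11, adjusted p = 0.00382) and BTC by 0.28 (SE 0.09, adjusted p = 0.026), while EGFR fell by 0.19 (SE 0.05, adjusted p = 0.00412) and ERBB3 fell by 0.17 (SE 0.06, adjusted p = 0.0349). TGFA (0.77, adjusted p = 2.78e-07), EPGN (1.28, adjusted p = 0.0079) and ERBB2 (-0.33, adjusted p = 2.42e-05) were called in this fit as well.

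Of the markers of other cell types, CD14, a monocyte marker, was lower in irradiated SAS libraries (8.22 ± 2.42 CPM, against 15.4 ± 5.60 CPM, SD, n = 6 each, adjusted p = 0.0133). The sum of the 5 leukocyte markers, of which only CD14 exceeded 1 CPM, ranged from 5.29 to 8.12 CPM after GSK-J1 with 4 Gy and 6.38 to 11.2 CPM after 4 Gy, against 8.68 to 15.6 CPM under GSK-J1 and 10.5 to 23.9 CPM in sham SAS cells. CD3E and LYZ were near 0. The endothelial marker CDH5 averaged 17.1 ± 5.70 CPM in irradiated SAS libraries, against 51.9 ± 37.6 CPM in the others (SD, n = 6 each), and was not called (adjusted p = 0.0735). The part of CD14 and CDH5 in these results was not tested.

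EPGN is a special case in SAS because of its low counts. It had 10, 12 and 10 counts in the libraries given GSK-J1 with 4 Gy and 11, 12 and 16 counts after 4 Gy, against 8, 6 and 2 counts under GSK-J1 and 4, 3 and 5 counts in sham cells. Every irradiated library thus had more EPGN counts than every other library, and the increase was called (log2 fold change 1.27, SE 0.32, adjusted p = 0.0146). For 4 Gy over sham, the ratio of the summed counts was 3.53 with an exact 95% counting interval of 1.81 to 7.42. For GSK-J1 with 4 Gy over GSK-J1, the summed counts of 32 and 16 gave a ratio of 1.71. Its interval of 0.909 to 3.33 included a ratio of no change. In CPM the groups overlapped. EPGN had a higher level in Cal33 than in SAS, and the part of Cal33 transcripts in the EPGN counts of the 2 SAS libraries that held them was not tested, but without these libraries EPGN was called as well (1.43, SE 0.36, adjusted p = 0.0272). In Cal33, where EPGN had 266 to 598 counts per library, irradiation gave 0.58 (SE 0.20, adjusted p = 0.0512). This missed the threshold narrowly. EPGN in Cal33 was called by DESeq2, with DESeq2 size factors, without a count filter, with a mean of at least 10 counts, without regard to strand, with AREGB summed to AREG and with all 24 libraries in the fit (log2 fold change 0.56 to 0.60, adjusted p = 0.019 to 0.0498). It was also called without GSK-J1 replicate 2 (0.81, adjusted p = 0.00493) or GSK-J1 with 4 Gy replicate 3 (0.65, adjusted p = 0.0481), but not without the 2 irradiated replicate 1 libraries (0.48, adjusted p = 0.136).

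ERBB2 was the member that fell in SAS. It had 125, 110 and 117 CPM after GSK-J1 with 4 Gy and 132, 121 and 123 CPM after 4 Gy, against 152, 145 and 150 CPM under GSK-J1 and 158, 161 and 146 CPM in sham cells. All 6 irradiated libraries were under all 6 others, and the decrease was called (log2 fold change -0.33, SE 0.05, adjusted p = 0.00093). In Cal33, ERBB2 had 141, 162 and 180 CPM and 136, 155 and 155 CPM in the irradiated groups, against 179, 190 and 179 CPM under GSK-J1 and 212, 167 and 160 CPM in sham cells. These overlapped, and the difference was not called (-0.22, SE 0.09, adjusted p = 0.086). In the fit of all 24 libraries, however, ERBB2 was called lower in irradiated Cal33 libraries too (-0.24, SE 0.07, adjusted p = 0.0148).

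**Figure D3:**
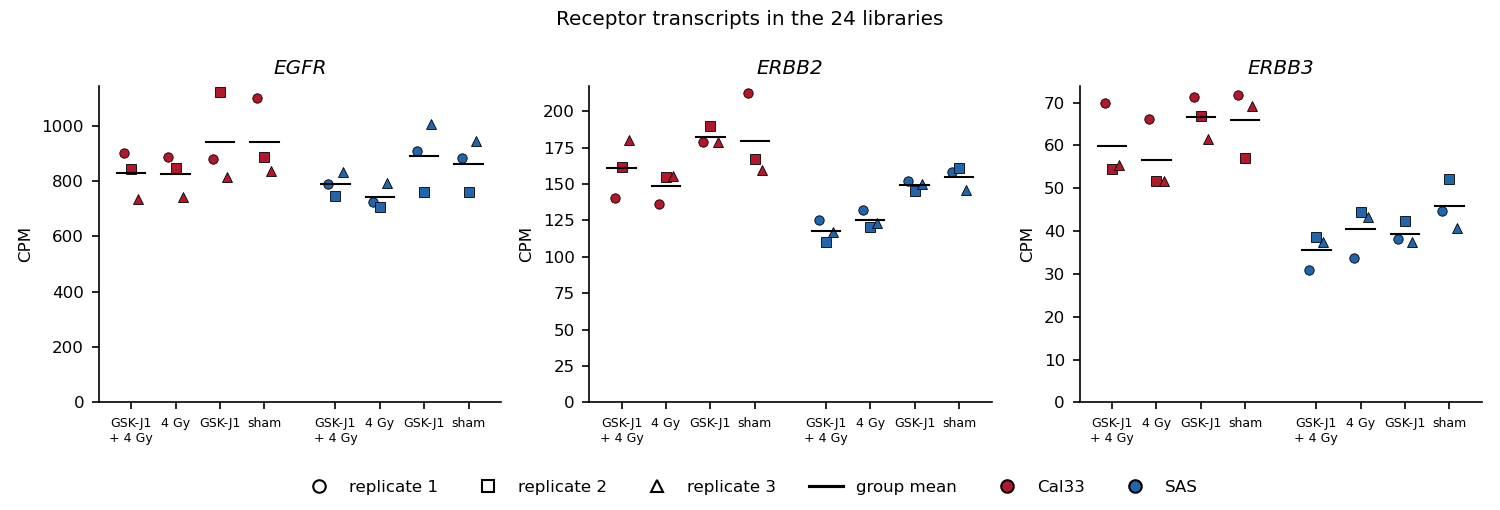
CPM of the 3 receptors in the 24 libraries, by line and treatment, with a symbol for each replicate and a bar at the group mean. ERBB2 is lower in all irradiated than in all non-irradiated SAS libraries (blue), while EGFR and ERBB3 overlap in both lines.

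EGFR in irradiated Cal33 libraries averaged 827 ± 70.6 CPM, against 940 ± 135 CPM in non-irradiated ones (SD, n = 6 each), and was not called (-0.18, SE 0.10, adjusted p = 0.223). In SAS, EGFR ranged from 707 to 833 CPM in irradiated libraries, against 760 to 1006 CPM in non-irradiated ones (-0.20, SE 0.08, adjusted p = 0.0871), and was called without GSK-J1 replicate 2 (-0.25, adjusted p = 0.034) and with the replicate block above. ERBB3 averaged 58.2 ± 7.81 CPM in irradiated Cal33 libraries, against 66.3 ± 5.89 CPM in the others, and was not called (-0.18, SE 0.10, adjusted p = 0.215). In SAS it averaged 38.1 ± 5.25 CPM in irradiated libraries, against 42.6 ± 5.44 CPM in the others (SD, n = 6 each), and was not called without the block (-0.16, SE 0.09, adjusted p = 0.227). BTC averaged 7.78 ± 1.25 CPM in irradiated Cal33 libraries, against 6.40 ± 0.59 CPM in the others (0.28, SE 0.12, adjusted p = 0.11), and 3.11 ± 0.28 CPM in irradiated SAS libraries, against 2.56 ± 0.36 CPM in the others (SD, n = 6 each, 0.28, SE 0.10, adjusted p = 0.0649). In SAS, BTC was called by DESeq2 (adjusted p = 0.0256), with a mean of at least 10 counts (0.0353) and with the block.

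For 4 Gy alone over sham in SAS, TGFA and EPGN were called higher and ERBB2 lower, at a background of 7.08% of genes called, 3.63% higher and 3.45% lower. TGFA changed by 0.81 (SE 0.13, adjusted p = 0.00411), EPGN by 1.80 (SE 0.46, adjusted p = 0.0349) and ERBB2 by -0.31 (SE 0.07, adjusted p = 0.0241). EPGN lost its call when any of the 6 libraries was left out (adjusted p = 0.0571 to 0.105), and ERBB2 lost it without 4 Gy replicate 2 or 3 or sham replicate 1 or 2 (adjusted p = 0.0866, 0.105, 0.0778 and 0.0819), whereas TGFA was called in each of the 6 fits. ERBB2 was not called with all 24 libraries in the fit either (adjusted p = 0.108). With the replicate block in the 12 SAS libraries, 7 members were called at a background of 24.5% of genes, and HBEGF (1.06, SE 0.18, adjusted p = 0.000895), AREG (0.86, SE 0.18, adjusted p = 0.00352), EREG (0.51, SE 0.16, adjusted p = 0.0298) and EGFR (-0.21, SE 0.06, adjusted p = 0.0274) were added to these 3. With the block in the 6 libraries compared, EGFR was not called (-0.21, adjusted p = 0.0842) and the other 6 were, at a background of 16.6% of genes.

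**Figure D4:**
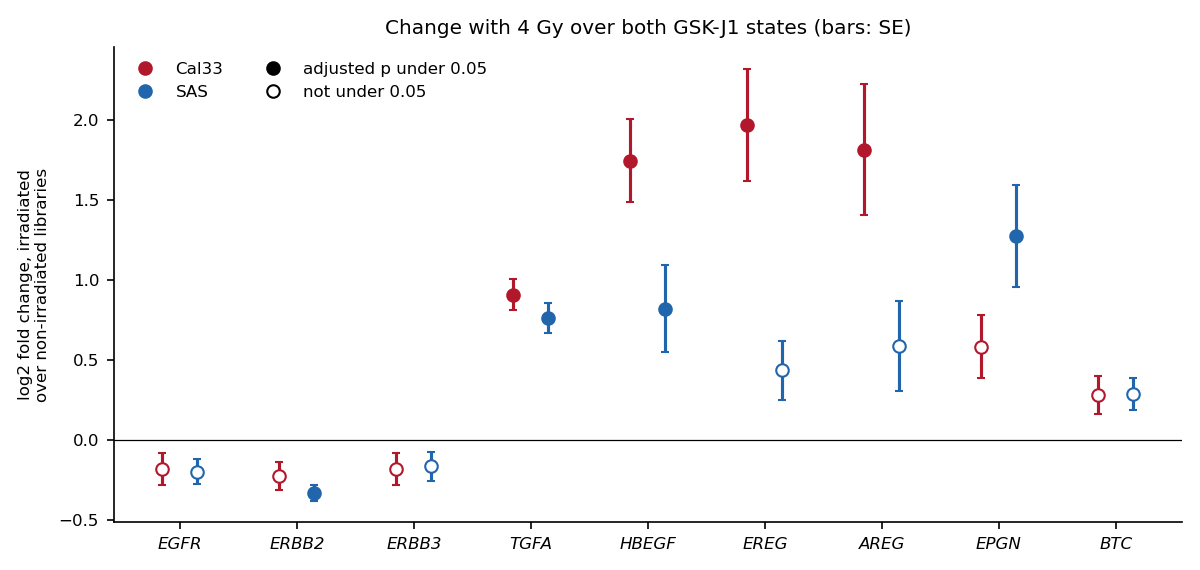
Log2 fold change of the 9 members in irradiated over non-irradiated libraries (6 against 6) in Cal33 (red) and SAS (blue), without a replicate block. Error bars are SE and filled points have an adjusted p under 0.05, which 4 ligands reach in Cal33 and 3 ligands and ERBB2 in SAS.

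The response to 4 Gy was then compared between the lines within a single fit of all 24 libraries. EREG differed, with a log2 fold change that was 1.51 higher in Cal33 than in SAS (SE 0.41, adjusted p = 0.0372), as the only member called at a background of 4.9% of genes called, 2.81% higher and 2.1% lower. The differences for AREG (1.20, SE 0.53, adjusted p = 0.222) and HBEGF (0.90, SE 0.41, adjusted p = 0.232) did not pass, and that for TGFA was 0.12 (SE 0.14, adjusted p = 0.721). The EREG call was lost without the 2 irradiated Cal33 replicate 1 libraries (0.92, adjusted p = 0.121), without the 2 SAS libraries that held Cal33 transcripts (1.48, adjusted p = 0.087), and in 15 of the 24 fits that left out a single library (adjusted p = 0.0542 to 0.076). It held only when the library left out was Cal33 GSK-J1 with 4 Gy replicate 2 or 3, Cal33 4 Gy replicate 2 or 3, Cal33 GSK-J1 replicate 1, Cal33 sham replicate 3, SAS 4 Gy replicate 1, SAS GSK-J1 replicate 2 or SAS sham replicate 2. After 4 Gy, EREG in Cal33 nevertheless stayed under every sham library of SAS, with 12.05 CPM in its highest library, against 23.1 CPM in the lowest SAS sham library.

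The next comparisons asked what 4 Gy did in the presence of GSK-J1. GSK-J1 with 4 Gy over GSK-J1 alone raised EREG, HBEGF and TGFA in Cal33 (1.95, 1.71 and 0.90 on the log2 scale, adjusted p = 0.0408, 0.021 and 0.00532), at a background of 5.11% of genes called and 3.04% called higher. Same-numbered libraries also deviated together in these 2 groups, and with the replicate as a block in these 6 libraries AREG (1.58, SE 0.21, adjusted p = 8.33e-07), EPGN (0.61, SE 0.20, adjusted p = 0.0296) and BTC (0.45, SE 0.15, adjusted p = 0.0401) were called too, at a background of 18.4% of genes. With the block in all 12 Cal33 libraries, AREG was called narrowly (1.5, SE 0.42, adjusted p = 0.0498), and EPGN (0.55, adjusted p = 0.219) and BTC (0.44, adjusted p = 0.101) were not, at a background of 8.67% of genes. Without a block, AREG was not called (1.58, adjusted p = 0.131), EREG lost its call when any of the libraries but GSK-J1 with 4 Gy replicate 2 was left out (adjusted p = 0.0638 to 0.15), and HBEGF without GSK-J1 replicate 2 or 3 or GSK-J1 with 4 Gy replicate 1 or 3 (adjusted p = 0.052 to 0.0805).

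In SAS, GSK-J1 with 4 Gy over GSK-J1 alone gave TGFA higher (0.72, SE 0.13, adjusted p = 0.0107) and ERBB2 lower (-0.35, SE 0.07, adjusted p = 0.0169), at a background of 4.42% of genes called, 2.43% higher and 1.99% lower. Both of these groups include a library that held Cal33 transcripts, and without the 2 libraries neither TGFA (0.78, adjusted p = 0.0631) nor ERBB2 (-0.39, adjusted p = 0.0991) was called, at a background of 0.414% of genes called. ERBB2 was also lost without GSK-J1 replicate 1 or GSK-J1 with 4 Gy replicate 2 or 3 (adjusted p = 0.0666, 0.0885 and 0.0687). With the replicate block in the 12 SAS libraries, HBEGF (0.79, SE 0.18, adjusted p = 0.00658) and BTC (0.39, SE 0.13, adjusted p = 0.0418) were called besides these, at a background of 21.5% of genes. With the block in the 6 libraries compared, HBEGF (0.79, adjusted p = 0.000507), AREG (0.45, adjusted p = 0.013) and EREG (0.43, adjusted p = 0.00159) were called besides TGFA and ERBB2, and BTC was not (0.39, adjusted p = 0.0602), at a background of 20.2% of genes.

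For the combination over sham in Cal33, EREG (2.04, SE 0.50, adjusted p = 0.0382), HBEGF (1.80, SE 0.37, adjusted p = 0.0195) and TGFA (0.86, SE 0.14, adjusted p = 0.00741) were called, all higher, at a background of 4.7% of genes called, 2.91% higher and 1.79% lower. EREG lost its call without GSK-J1 with 4 Gy replicate 1 or 3 or sham replicate 1 or 2 (adjusted p = 0.0723 to 0.151), and HBEGF without GSK-J1 with 4 Gy replicate 1 or sham replicate 1 or 2 (adjusted p = 0.0568 to 0.0785). AREG was not called (1.90, SE 0.58, adjusted p = 0.0837), although it was by DESeq2 (adjusted p = 0.0496), without a count filter (0.0137) and with all 24 libraries in the fit (0.0393). In SAS, TGFA was higher (0.74, SE 0.13, adjusted p = 0.00594) and ERBB2 lower (-0.42, SE 0.07, adjusted p = 0.00496), at a background of 7.86% of genes called, 3.87% higher and 3.98% lower. With the replicate block in the 12 SAS libraries, HBEGF (1.11), AREG (0.78), EREG (0.64) and ERBB3 (-0.38) were called too (adjusted p = 0.00055, 0.0054, 0.00782 and 0.00339), at a background of 26.4% of genes, and the block in the 6 libraries compared called the same members at a background of 17.1%. Without sham replicate 3 and without a block, EREG and ERBB3 were called in addition (0.85 and -0.46, adjusted p = 0.0494 and 0.0438). These comparisons share their sham libraries with those of 4 Gy alone.

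GSK-J1 alone did not move any member past the threshold. In GSK-J1 over sham, 0 members were called in Cal33 and 0 in SAS by edgeR and by DESeq2, at a background of 0% of genes in both lines in edgeR. At an unadjusted p under 0.05, 215 of 24351 genes were found in Cal33 and 486 of 23416 genes in SAS. Among them were 0 members in Cal33 and 1 in SAS, BTC, with 2.26, 2.29 and 2.30 CPM under GSK-J1, against 2.94, 2.52 and 3.06 CPM in sham cells. These BTC groups did not overlap (log2 fold change -0.33, SE 0.14, adjusted p = 1). The log2 fold changes of the 9 members had SEs of 0.07 to 0.51 in SAS and 0.12 to 0.57 in Cal33, where AREG had the highest SE.

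GSK-J1 with 4 Gy over 4 Gy alone likewise gave 0 members called in either line by edgeR and DESeq2, at a background of 0% of genes, with 0 members at an unadjusted p under 0.05. Of all genes, 244 of 24351 in Cal33 and 438 of 23416 in SAS had such an unadjusted p. TGFA, for instance, averaged 42.2 ± 3.47 CPM after the combination and 44.1 ± 5.94 CPM after 4 Gy in Cal33, and 126 ± 6.39 CPM after the combination and 130 ± 13.5 CPM after 4 Gy in SAS (SD, n = 3 each). The interaction of GSK-J1 and 4 Gy was called for 0 members in both lines by edgeR and DESeq2 as well, with 0 at an unadjusted p under 0.05. Over all genes, 209 of 24351 in Cal33 and 399 of 23416 in SAS had such an unadjusted p.

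In SAS the block mattered for GSK-J1. With the replicate as a block in the 6 libraries compared, GSK-J1 over sham called HBEGF (0.33, adjusted p = 0.000785) and AREG (0.35, adjusted p = 0.00659) higher and ERBB3 lower (-0.22, adjusted p = 0.0297), at a background of 2.59% of genes. With the block in all 12 SAS libraries, 0 members were called, with adjusted p = 0.946 for HBEGF, 0.933 for AREG and 0.682 for ERBB3. GSK-J1 with 4 Gy over 4 Gy called EREG higher (0.12, adjusted p = 0.0498) and ERBB2 (-0.12, adjusted p = 0.0485) and ERBB3 (-0.20, adjusted p = 0.00168) lower in the 6-library block, at a background of 7.98%, and 0 members in the 12-library block. The size of each of these changes was under 0.4 on the log2 scale. In Cal33, GSK-J1 with 4 Gy over 4 Gy called 0 members in the 6-library block, at a background of 0.515% of genes. The 12-library block called 0 members there as well, at a background of 0%.

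Of 6 other receptor and ligand genes, 5 were tested with irradiation, and NRG1, a neuregulin that binds ERBB3 and ERBB4, rose in both lines. In all, 2 of these 5 were called higher in Cal33 and 1 in SAS, where 11.3% and 9.65% of all genes were called higher. NRG1 averaged 65.5 ± 10.8 CPM in irradiated Cal33 libraries, against 36 ± 5.25 CPM in the others (log2 fold change 0.87, SE 0.13, adjusted p = 0.0009), and 62.0 ± 2.21 CPM in irradiated SAS libraries, against 44.7 ± 5.12 CPM in the others (SD, n = 6 each, log2 fold change 0.47, SE 0.07, adjusted p = 0.00056). The NRG1 groups did not overlap in either line. NRG2, at a low level, was the other gene of this list called in Cal33 (1.18 ± 0.24 CPM in irradiated libraries, against 0.491 ± 0.15 CPM in the others, SD, n = 6 each, adjusted p = 0.0021). At baseline, NRG4 and EGF, another EGFR ligand, were higher in Cal33, with 5.42 ± 1.66 CPM in sham Cal33 cells, against 0.309 ± 0.03 CPM in sham SAS cells for NRG4, and 2.33 ± 0.69 CPM, against 0.0158 ± 0.02 CPM for EGF (SD, n = 3 each).

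Of 6 sheddases and partners, which release the ligands, 0 were called with irradiation in Cal33 (1 at an unadjusted p under 0.05) and 1 in SAS, where the protease ADAM9 rose by 0.17 (SE 0.04, adjusted p = 0.0143). Of all genes, 21.5% were called in Cal33 and 20.2% in SAS, so the SAS count is near that background. In Cal33, 8560 of 24351 genes had an unadjusted p under 0.05. Between sham cells, 3 of the 6 were called, a share near the 54.5% of all genes called: RHBDF1, an inactive rhomboid that helps ADAM17 to mature, was 3.20-fold higher in Cal33, whereas RHBDF2, its relative (-0.61, SE 0.25, adjusted p = 0.0415), and ADAM17 (-0.35, SE 0.13, adjusted p = 0.0309) were lower.

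Of 9 genes for receptor inhibitors and ubiquitin ligases, 3 rose and 2 fell with irradiation in Cal33, and 2 rose and 4 fell in SAS, where 21.5% of all genes in Cal33 and 20.2% in SAS were called in either direction. The median log2 fold change of this list was 0.15 in Cal33, against 0.02 over all genes, and -0.04 in SAS, against -0.01 over all genes. SH3KBP1, an adaptor of the ubiquitin ligase CBL, rose in both lines by 0.89 in Cal33 (SE 0.12, adjusted p = 0.00041) and 0.76 in SAS (SE 0.09, adjusted p = 0.000144). ERRFI1, an inhibitor that binds the EGFR kinase domain, rose in Cal33 (0.88, SE 0.16, adjusted p = 0.00276), and CBLB, a ubiquitin ligase of EGFR, fell there (-0.45, SE 0.08, adjusted p = 0.00207). In SAS, LRIG3 fell by 0.54 on the log2 scale (SE 0.11, adjusted p = 0.00534), and CBLC fell by 0.28 (SE 0.07, adjusted p = 0.0181). In sham cells, CBLB was 5.11-fold higher and ERRFI1 2.93-fold lower in Cal33 than in SAS.

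Of 17 adaptors and relays, 2 rose and 1 fell with irradiation in Cal33, and 4 rose and 1 fell in SAS, next to 21.5% of all genes called in Cal33 and 20.2% in SAS. The Cal33 count is near that background. The median log2 fold change was 0.12 in Cal33 and 0.09 in SAS, against 0.02 and -0.01 over all genes. GAB2, a docking protein under growth factor receptors, had 1.81 ± 0.84 CPM in irradiated Cal33 libraries, against 0.305 ± 0.07 CPM in the others (log2 fold change 2.58, SE 0.32, adjusted p = 0.000281), and 4.14 ± 0.58 CPM in irradiated SAS libraries, against 1.35 ± 0.13 CPM in the others (SD, n = 6 each, log2 fold change 1.6, SE 0.11, adjusted p = 5.53e-06). The GAB2 groups did not overlap in either line. MAP2K1, the kinase MEK1, which activates ERK, rose by 0.51 in Cal33 (SE 0.09, adjusted p = 0.0023) and 0.48 in SAS (SE 0.06, adjusted p = 0.000267), and MAPK3, coding for ERK1, fell in Cal33 (-0.42, SE 0.07, adjusted p = 0.00179). At baseline, 3 of these genes were higher and 6 lower in Cal33, a share near the 54.5% of all genes called.

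Most of the 14 ERK output genes, which are transcribed when ERK is active, rose with irradiation in Cal33: 11 were called higher and 0 lower in Cal33, with a median log2 fold change of 0.64, against 0.02 over all genes tested, and 7 higher and 0 lower in SAS, with a median of 0.32, against -0.01 over all genes. Of all genes, 11.3% were called higher in Cal33 and 9.65% in SAS. FOSL1, an AP-1 subunit, had 113 ± 37.7 CPM in irradiated Cal33 libraries, against 21.1 ± 5.51 CPM in the others (log2 fold change 2.42, SE 0.25, adjusted p = 9e-05), and 271 ± 47.6 CPM in irradiated SAS libraries, against 119 ± 51.9 CPM in the others (SD, n = 6 each, log2 fold change 1.19, SE 0.23, adjusted p = 0.004). DUSP4, an ERK phosphatase, rose by 1.35 in Cal33 (SE 0.17, adjusted p = 0.00033) and 1.42 in SAS (SE 0.32, adjusted p = 0.00834), and ETV5, an ETS factor, by 0.51 (SE 0.08, adjusted p = 0.000817) and 0.42 (SE 0.07, adjusted p = 0.00209). ERK activity itself was not measured. DUSP5, another ERK phosphatase, was the only gene of this list whose response differed between the lines, by 1.10 (SE 0.28, adjusted p = 0.0248).

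**Figure D5:**
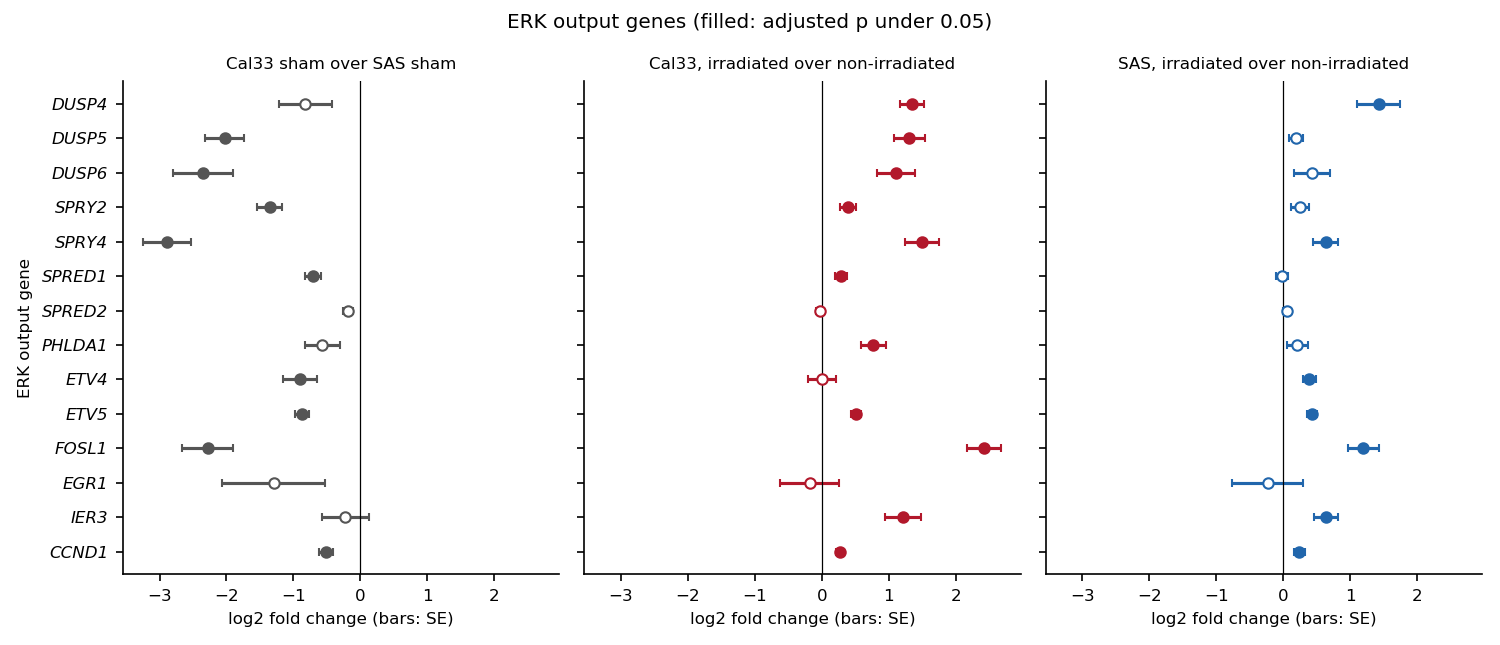
Log2 fold change with SE of 14 ERK output genes in sham Cal33 over sham SAS cells (left), in irradiated over non-irradiated Cal33 libraries (middle) and in irradiated over non-irradiated SAS libraries (right), with points filled where the adjusted p was under 0.05. Of the 14 genes, 9 are lower in Cal33 than in SAS at baseline, 11 rise in Cal33 with irradiation and 7 rise in SAS.

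In sham cells, 9 of the 14 ERK output genes were lower in Cal33 than in SAS and 0 higher, with a median log2 fold change of -0.89, against 0.02 over all genes and a background of 27.2% of genes called lower. SPRY4, a feedback inhibitor of the pathway, had 2.86 ± 0.28 CPM in sham Cal33 cells, against 21.0 ± 7.62 CPM in sham SAS cells, SPRY2 had 4.65 ± 0.52 CPM, against 11.8 ± 2.01 CPM, and ETV5 had 16.3 ± 0.79 CPM, against 29.6 ± 0.72 CPM (SD, n = 3 each). For these 3 genes, no Cal33 library overlapped a SAS library.

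The ligands AREG, EREG and HBEGF also moved together from library to library. After the mean of each line was removed, AREG and HBEGF correlated with r = 0.957 over the 24 libraries. Within the 12 Cal33 libraries, r was 0.945 for AREG with EREG, 0.971 for AREG with HBEGF and 0.968 for EREG with HBEGF, and within the 12 SAS libraries 0.931, 0.948 and 0.943. TGFA moved with AREG, EREG and HBEGF as well, with r = 0.865, 0.952 and 0.940 in Cal33 and 0.745, 0.794 and 0.854 in SAS. These are descriptions of log2 CPM without a test, since libraries of a group share treatment and, in SAS, deviations by replicate number. ERBB2 ran opposite to TGFA in both lines (r = -0.791 in Cal33 and -0.818 in SAS). Its r was negative with the other ligands too, among them EREG (-0.815 and -0.582) and HBEGF (-0.688 and -0.620).

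Among 16155 genes with a mean of at least 10 counts in both lines, the genes most like each member over the 24 libraries, with line means removed, were DEDD2 (r = 0.959) and HBEGF for AREG, IL1A (0.978) and MICAL2 (0.968) for EREG, AREG and RNF43 (0.95) for HBEGF, and NAV3 (0.981) and CD274 (0.971) for TGFA. For EPGN they were the keratin genes KRT6A (0.859) and KRT16 (0.848), and for BTC they were TCAP (0.775) and LRRC8E (0.764). For the receptors they were ZNF532 (0.893) and ALDH1L2 (0.888) for EGFR, UNK (0.945) and ZNF362 (0.943) for ERBB2, and PLD2 (0.871) and AK8 (0.848) for ERBB3.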

How the data were processed

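RNA was sequenced from Cal33 and SAS cells with a stranded total RNA kit. Per the labels and the submitters' processing notes, reads were aligned to hs37d5 with STAR 2.5.3a and counted per gene with featureCounts of Subread 1.5.1. The deposited values used were the authors' raw counts of reads on the sense strand. The authors' other columns hold counts on the opposite strand and without regard to strand, and normalized values, and only the count without regard to strand served, as an alternative.

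Each line was fitted with edgeR 4.0.16 in R 4.3.3 (quasi-likelihood test, TMM scaling, group means, a filter that kept genes averaging 1 count or more, Benjamini-Hochberg adjustment), and a fit of all 24 libraries served to compare the lines. CPM and FPKM used the TMM scaling of all 24 libraries and the exonic lengths of the deposited files. In simulated data, 76% of genes changed 2-fold and 93% of genes changed 4-fold were recovered for 4 Gy against sham in SAS, and 52% and 85% in Cal33. Unchanged genes were called 7 times in SAS and 6 times in Cal33. Changes were placed only in genes with a mean of at least 10 counts, which EPGN in SAS did not reach. The simulated libraries were independent of each other, so shared deviations by replicate number were not included. Libraries with the same replicate number deviated together in SAS (6 of 6 pairs of groups, every r at least 0.215) and between the treated groups of Cal33 (3 of 3, every r at least 0.156), though the labels do not say what the numbers share, but not where sham Cal33 was one of the groups (0 of 3) or between the lines (0 of 16). Values with the replicate as a block are given for the compared pairs of groups that deviated together, and counts for some other comparisons are given at the end. Cal33 transcripts in SAS were read from genes with a mean of at least 20 CPM in Cal33 and a median of at most 0.01 CPM in SAS. Alternatives were DESeq2 1.42.0, other count filters and thresholds, summed AREG and AREGB counts, other sets of libraries and leaving out each library. Named besides the members were, per list and comparison, at most the 3 called genes with the smallest p, and for each member the 2 genes most like it. Some genes of the lists are not reported here by name. The members and lists were chosen with earlier results of these data known. Counting intervals cover counting error only. Promoter sequences are from RefSeq on GRCh38.p14.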

Additional observations from a re-analysis of the deposited data

Results flagged for a closer look

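In the comparison of the response to 4 Gy between the lines, 61 genes of the members and lists were tested and 3 differed in a test of the difference itself, taken as Cal33 minus SAS on the log2 scale. This share is near the background of 4.9% of all genes called in that comparison. EREG differed by 1.51 (SE 0.41, adjusted p = 0.0372), with a log2 fold change of 1.97 in Cal33 and 0.43 in SAS. DUSP5, an ERK phosphatase, differed by 1.10 (SE 0.28, adjusted p = 0.0248), with 1.31 in Cal33 and 0.19 in SAS. RNF41, a ubiquitin ligase of ERBB3, differed by 0.29 (SE 0.08, adjusted p = 0.0493), with 0.27 in Cal33 and -0.03 in SAS.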

How the results depend on the processing

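The 4 ligands called in irradiated over non-irradiated Cal33 libraries and the 7 members called between sham lines kept their calls in every leave-one-out fit, and the AREG difference between sham lines was lost only when AREGB was summed with it. At an adjusted p under 0.01, 1 member was called in Cal33 for 4 Gy over sham (1.18% of all genes called), 1 for GSK-J1 with 4 Gy over sham (0.682%) and 1 for GSK-J1 with 4 Gy over GSK-J1 (0.949%). In SAS 2 were called for irradiated over non-irradiated libraries (9.08% of all genes), 1 for 4 Gy over sham (1.98%) and 0 for GSK-J1 with 4 Gy over GSK-J1 (1.03%), and 0 differed between the lines in their response (1.68%). At an adjusted p under 0.05 with a log2 fold change over 1 required as well, 1 member was called in SAS for irradiated over non-irradiated libraries (4.06% of all genes), 1 for 4 Gy over sham (2.08%), 0 for GSK-J1 with 4 Gy over sham (2.25%) and 0 for GSK-J1 with 4 Gy over GSK-J1 (1.28%). For GSK-J1 with 4 Gy over GSK-J1 in SAS, 1 member was called with all 24 libraries in the fit (1.44% of all genes) and 1 with only the 6 libraries compared (2.28%). Without the 2 libraries that held Cal33 transcripts, 0 members were called, where the share of all genes was 0.414%, against 4.42% with them. For 4 Gy over sham in SAS 1 was called with only the 6 libraries (3.85%). The difference between the lines had 0 calls without the 2 SAS libraries that held Cal33 transcripts (2.77% of all genes) and, chosen after seeing the data, 0 without the 2 irradiated replicate 1 libraries of Cal33 (4.4%). The causes were not tested, and some of these fits used fewer libraries.

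The replicate block in SAS gave 9 calls for irradiated over non-irradiated libraries (37% of all genes called), 7 for 4 Gy over sham (24.5%), 6 for GSK-J1 with 4 Gy over sham (26.4%) and 4 for GSK-J1 with 4 Gy over GSK-J1 (21.5%). The block within the 6 libraries compared gave 6, 6 and 5 for the last 3 of these (16.6%, 17.1% and 20.2% of all genes), 3 for GSK-J1 over sham (2.59%), 3 for GSK-J1 with 4 Gy over 4 Gy (7.98%), and 6 for GSK-J1 with 4 Gy over GSK-J1 in Cal33 (18.4%). Where the numbers did not pair the libraries, the block gave 5 calls for irradiated over non-irradiated Cal33 libraries (26.2% of all genes), against 4 without it, EPGN being added (adjusted p = 0.0324), and 4 against 3 both for 4 Gy over sham (9.91%) and for GSK-J1 with 4 Gy over sham (7.84%), AREG being added (adjusted p = 0.0227 and 0.0278). The block left 7 calls between sham lines (57.5% of all genes) and 1 in the difference between the lines (7.9%).

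Leaving out single libraries gave 1 to 3 calls in Cal33 for 4 Gy over sham (1.76% to 4.95% of all genes called), 1 to 3 for GSK-J1 with 4 Gy over sham (1.14% to 5.03%) and 1 to 3 for GSK-J1 with 4 Gy over GSK-J1 (1.04% to 5.49%). In SAS it gave 1 to 2 for 4 Gy over sham (2.51% to 8.03% of all genes), 2 to 4 for GSK-J1 with 4 Gy over sham (3.1% to 12.2%) and 1 to 2 for GSK-J1 with 4 Gy over GSK-J1 (1.41% to 3.89%), and 0 to 1 for the difference between the lines (3.58% to 6.09%). For GSK-J1 over sham in SAS, which was not called, the log2 fold change of AREG ranged from -0.07 to 0.71 and that of HBEGF from -0.01 to 0.66. It turned negative without GSK-J1 replicate 3 (AREG -0.070) and without sham replicate 2 (AREG -0.0016, HBEGF -0.014).

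Over all genes, 4 Gy over sham in SAS called 1658 genes in edgeR, against 2845 in DESeq2, 666 with all 24 libraries in the fit, 897 with the 6 libraries and 5734 with the block, and in Cal33 1528, against 2678, 2690, 783 and 2414 in the same order. EPGN in SAS rested on at most 16 counts a library, which limits its precision.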
